A study of Mus musculus with 24 samples.

Results

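The nuclear factor I (NFI) family has 4 genes in mouse, Nfia, Nfib, Nfic, and Nfix, and their loci were read from chromatin immunoprecipitation sequencing (ChIP-seq) peaks of 3 transcriptional regulators (TRs) in the embryonic cortex. The members were fixed by name, and a peak was assigned to a member if it overlapped the gene body or the 200 kb on either side. This took 1818 of 314954 peaks on the main chromosomes. The TRs were ARID1B, which belongs to the chromatin remodeler BAF, the forkhead protein FOXP1, and TCF7L2, which acts downstream of Wnt signals and is called TCF4 in the sample labels. Wildtype mice on a CD1 background gave cortex dissected from embryos at E15.5 or E18.5 (days of embryonic development), with 2 ChIP and 2 input libraries for each TR and stage, 24 libraries in all. The study's methods describe final peaks called on merged replicates, and although each deposited list is attached to replicate 1 of its TR and stage, it was read here as that merged list. Each TR and stage is thus 1 list of peaks, and no value below has a spread between replicates or a test. The cortical marker genes Emx1, Neurod6, Sox2, and Tubb3 had promoter peaks in every list, and of 8 markers of liver, heart, blood, vessels, and microglia only Cdh5 had a promoter peak, in 1 list (FOXP1 at E15.5, 2.91-fold).

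NFI proteins are transcription factors that bind DNA as dimers at a palindrome made of TTGGC and GCCAA with 5 bases between them, and more weakly at either arm alone. In the developing cortex they are known for moving radial glia from making neurons toward making glia. Nfia is switched on at the start of gliogenesis and acts together with Sox9. Mice without Nfia, Nfib, or Nfix keep radial glia for longer and form fewer glia and a defective corpus callosum. Nfic is best known for its part in tooth root formation.

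The genes differ in size and neighborhood. In GRCm38, Nfia lies on the forward strand (chr4:97772734-98118874, 346 kb) and Nfib on the reverse strand of the same chromosome (chr4:82290173-82705750, 416 kb). Both are long genes in sparse surroundings, with 1 other protein-coding gene in the Nfia window and 3 in the Nfib window. Nfix (chr8:84699876-84800344, 100 kb, reverse strand) and Nfic (chr10:81396186-81455635, 59.5 kb, reverse strand) sit in gene-dense regions, with 22 and 31 other protein-coding genes.

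The sequences below are the places on which the comparisons turn. They are reference sequence of GRCm38, forward strand, 200 bases around the highest summit, first for the strongest promoter peak of a member and then for its strongest distal locus with peaks in all 6 lists, and last for an intronic Nfia locus at which the forkhead protein FOXP1 was highest at E15.5, which was added after its values were seen. Capitals mark matches to any of 5 motifs searched on both strands: the NFI palindrome, the NFI monomer site TTGGCA, the forkhead core TGTTTAC, the TCF/LEF core CTTTGAT, and the E-box CATCTG. The strongest Nfic promoter summit lies in an annotated UTR and is not printed.

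Nfia promoter peak, chr4:97880431-97880630: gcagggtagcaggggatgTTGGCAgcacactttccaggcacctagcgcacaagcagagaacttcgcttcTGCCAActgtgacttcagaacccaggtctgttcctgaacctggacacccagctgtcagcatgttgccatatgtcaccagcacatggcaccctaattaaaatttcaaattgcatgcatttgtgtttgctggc

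Nfib promoter peak, chr4:82506540-82506739: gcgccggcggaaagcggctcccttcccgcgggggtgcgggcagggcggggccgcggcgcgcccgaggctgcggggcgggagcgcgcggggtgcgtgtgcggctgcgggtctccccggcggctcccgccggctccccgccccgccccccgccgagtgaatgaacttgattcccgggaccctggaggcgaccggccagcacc

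Nfix promoter peak, chr8:84712484-84712683: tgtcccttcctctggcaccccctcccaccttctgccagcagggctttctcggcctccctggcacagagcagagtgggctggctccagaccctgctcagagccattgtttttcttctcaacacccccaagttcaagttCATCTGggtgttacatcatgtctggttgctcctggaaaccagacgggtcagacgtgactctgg

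Nfia distal locus, chr4:97575568-97575767: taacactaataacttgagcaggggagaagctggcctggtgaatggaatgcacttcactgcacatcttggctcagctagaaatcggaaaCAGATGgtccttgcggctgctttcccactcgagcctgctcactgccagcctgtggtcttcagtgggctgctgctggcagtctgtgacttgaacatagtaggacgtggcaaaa

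Nfib distal locus, chr4:82891065-82891264: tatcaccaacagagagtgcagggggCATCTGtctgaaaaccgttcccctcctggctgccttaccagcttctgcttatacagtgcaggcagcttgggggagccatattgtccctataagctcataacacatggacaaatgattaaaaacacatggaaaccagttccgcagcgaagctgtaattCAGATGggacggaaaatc

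Nfic distal locus, chr10:81570849-81571048: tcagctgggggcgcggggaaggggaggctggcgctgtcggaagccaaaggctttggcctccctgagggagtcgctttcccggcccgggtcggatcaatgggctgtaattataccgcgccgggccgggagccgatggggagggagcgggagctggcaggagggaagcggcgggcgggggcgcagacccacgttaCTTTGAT

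Nfix distal locus, chr8:84794074-84794273: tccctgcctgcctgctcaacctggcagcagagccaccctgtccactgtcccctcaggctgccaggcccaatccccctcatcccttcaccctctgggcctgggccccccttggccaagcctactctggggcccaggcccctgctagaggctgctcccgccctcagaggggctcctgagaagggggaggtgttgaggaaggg

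Nfia intronic locus, chr4:97923708-97923907: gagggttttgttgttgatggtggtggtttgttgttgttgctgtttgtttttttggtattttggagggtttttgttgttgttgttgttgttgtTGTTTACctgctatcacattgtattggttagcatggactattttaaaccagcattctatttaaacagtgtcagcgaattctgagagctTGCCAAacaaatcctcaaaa

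The Nfia promoter window held 2 NFI monomer sites on opposite strands, and its content of G and C was 51%. The Nfib promoter window held none of the 5 motifs, 32 CpG dinucleotides, and 81.5% G and C. The Nfib distal window held 2 E-boxes, the Nfia distal window 1 E-box, and the Nfic distal window 1 TCF/LEF core at its edge. The intronic Nfia window held 1 forkhead core and 1 NFI monomer site, and the Nfix distal window held no match. A match is only a description of the letters at a summit, and a window without one says nothing about which factor was present.

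The height of a peak is given as fold enrichment, the scaled reads over its summit divided by the background of the list, with 1 added to both. Each ChIP read counted as 0.856 in ARID1B at E15.5, 0.775 in TCF7L2 at E15.5, and 0.561 in FOXP1 at E18.5. In the other lists it counted as 1, and the read numbers given with the values are before scaling. The 95% intervals are exact Poisson intervals on the reads over a summit, which could be recovered from the lists, and they cover counting error only. The background was 6.13 to 8.63 reads per position in 5 lists and 2.81 reads in FOXP1 at E18.5, the shallowest list, in which the weakest called peak had 3.21-fold enrichment against 2.33 to 2.66-fold in the others. Values of different lists also carry the antibody, and in bulk cortex fewer cells with a TR on DNA and less TR per cell cannot be told apart.

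All 4 NFI genes had a peak at a promoter of their own, taken as the 2000 bp in front of each annotated start of transcription (TSS), in all 6 lists. Of all protein-coding genes 51.8% did so. In single lists the share of protein-coding genes with a promoter peak was 58.8% and 57.3% for ARID1B, 61.8% and 55.0% for FOXP1, and 57.3% and 61.2% for TCF7L2, the earlier stage first. A promoter peak is thus common among genes, and 4 members are too few to set their share apart. The members differed in the height of the peaks.

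Nfia stood out for ARID1B. Its highest promoter peak of ARID1B reached 18.1-fold at E15.5 (interval 15.8 to 20.8, 203 reads) and 18.1-fold at E18.5 (15.1 to 21.5, 128 reads), above 99.8% and 99.7% of the protein-coding genes that had an ARID1B promoter peak, whose medians were 5.17 and 5.61. The FOXP1 peaks of the same gene were ordinary, at 10.9-fold (8.72 to 13.4) at E15.5 and 6.88-fold (5.09 to 9.12) at E18.5, above 51.3% and 27.2% of genes. TCF7L2 reached 7.86-fold (6.2 to 9.83) and 9.09-fold (7.25 to 11.3). With TSSs of protein-coding transcripts only, the E18.5 value of ARID1B was 8.56, since the 18.1-fold peak lies at the promoter of a non-coding transcript.

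Nfib showed another order, with FOXP1 above ARID1B at E15.5 and intervals that do not overlap. FOXP1 reached 12.7-fold (10.3 to 15.4) at E15.5 and 10.4-fold (8.16 to 13.1) at E18.5, TCF7L2 9.01-fold (7.22 to 11.1) and 10.1-fold (8.13 to 12.3), and ARID1B 6.95-fold (5.51 to 8.66) and 7.01-fold (5.22 to 9.23). Against the genes with such a peak in the same list the order was another, with FOXP1 above 65.8% and 72.2% of genes, TCF7L2 above 87.4% and 92%, and ARID1B above 84.3% and 75.8%. FOXP1 was also highest among the list medians, 10.6 for FOXP1 against 6.4 for TCF7L2 and 5.17 for ARID1B at E15.5.

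Nfic had the lowest ARID1B values of the family in the upstream bases, 4.99-fold (3.79 to 6.47) and 5.33-fold (3.79 to 7.29), close to the medians of all genes. Its FOXP1 peaks reached 11.6-fold (9.4 to 14.3) and 9.39-fold (7.26 to 12), and its TCF7L2 peaks 7.23-fold (5.65 to 9.13) and 8.1-fold (6.37 to 10.2). Counting the 2000 bp downstream of each TSS as well, the ARID1B values were 7.04 and 7.01, beside 6.95 and 7.01 at Nfib, and Nfic was no longer the lowest.

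Nfix was highest for TCF7L2 at E18.5, at 12.6-fold (10.4 to 15.1, 114 reads), above 98.4% of genes, against 9.01-fold (7.22 to 11.1) at E15.5. The stages did not differ at this place beyond their intervals. The summit of the E18.5 peak lies 1484 bp downstream of the TSS at 84714068, and a TCF7L2 peak with its summit 27 bp away was called at E15.5 with 13.6-fold enrichment (11.4 to 16.1), but it ended short of the TSS and was therefore classed as intronic. This TSS belongs to a non-coding transcript, and with TSSs of protein-coding transcripts only the E18.5 value of TCF7L2 was 6.9. ARID1B reached 7.48-fold (5.98 to 9.25) and 7.85-fold (5.95 to 10.2) and FOXP1 9.24-fold (7.26 to 11.6) and 7.91-fold (5.98 to 10.3) at the Nfix promoters.

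**Figure D1:**
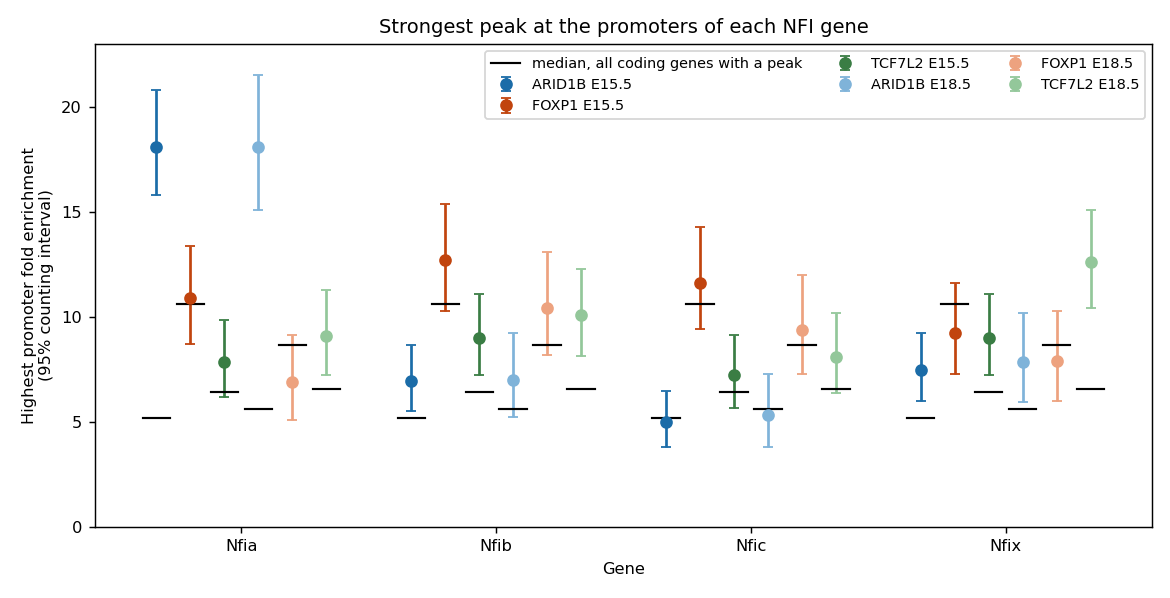
Highest fold enrichment (y axis, linear from 0) of a peak at the promoters of each NFI gene (x axis) in the 6 lists, with 95% counting intervals as bars and, as black lines, the median of the protein-coding genes with a promoter peak in that list. Both ARID1B values of Nfia (18.1) stand above every other point, and the next highest is FOXP1 at Nfib at E15.5 (12.7).

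For each gene, the whole profile over the 6 lists was set beside that of 11356 other protein-coding genes with promoter peaks in every list, by the Euclidean distance of the log2 fold enrichments. Nfia was nearest to E330009J07Rik (distance 0.34), Stx6 (0.34), and Tex14 (0.58), which shared its high ARID1B values, while the median gene was 2.57 away. Nfib was nearest to Trim24, Tpm1, and Clcc1 (0.11 to 0.15, median 1.1), Nfic to Ccdc105, Fam214b, and Wdr34 (0.15 to 0.16, median 0.91), and Nfix to Ubtf, Nnt, and Dut (0.35 to 0.40, median 1.41). The members were not each other's nearest genes. Nfib and Nfix were the closest pair of the family at 0.71, and Nfia and Nfic the most distant at 2.61.

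The annotated TSSs of the members fall into 16 promoters when those at most 2000 bp apart are joined, and these were not marked alike. Counting peaks within 2000 bp on either side of the TSSs, 12 of the 16 had a peak in all 6 lists and 1 had none. Upstream bases alone gave 9 of 16 and again 1 with none. The same count over single promoters of all genes is not given here, so these numbers do not set the members apart. The promoter without any peak was the most upstream one of Nfic (TSS 81455635), which is used by 1 transcript.

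In Nfia all 4 promoters had peaks in every list on this wider count. At the outermost TSS (97772734) the 6 values ran from 6.88-fold for FOXP1 at E18.5 to 10.8-fold for FOXP1 at E15.5, with ARID1B at 7.39 and 8.56. The high ARID1B values came from internal TSSs 107 and 138 kb into the gene. At 97880119 ARID1B reached 18.1-fold (15.8 to 20.8) at E15.5 and 18.7-fold (15.6 to 22.1) at E18.5, with summits 412 and 452 bp downstream of the TSS. At 97911033 ARID1B was 13.3-fold (11.3 to 15.7) at E15.5 and 18.1-fold (15.1 to 21.5) at E18.5, and these intervals overlap narrowly. FOXP1 at these internal promoters was 10.9 and 9.87-fold at E15.5 and 4.53 and 4.38-fold at E18.5.

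In Nfib the peaks gathered at the internal promoter (TSSs 82505308 to 82505779) from which 10 of 12 transcripts start. There FOXP1 was 12.7-fold and TCF7L2 9.01-fold at E15.5, whereas the promoter of the longest transcript (TSS 82705750) had 4.94-fold FOXP1, 4.73-fold TCF7L2, and 5.61-fold ARID1B peaks, and FOXP1 had none there at E18.5. The summits within the main promoter were spread out. FOXP1 summits lay 861 and 862 bp upstream of the outermost TSS of this promoter at the 2 stages, ARID1B summits 1390 and 1476 bp upstream, and TCF7L2 summits 226 and 284 bp downstream.

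The promoters of Nfic were unequal as well, and at Nfix this depended on the list. In Nfic the promoter at 81431005 carried the FOXP1 maximum (11.6-fold), and the promoter at 81407641 had at most 4.18-fold peaks and none of ARID1B or FOXP1 at E18.5. In Nfix all 4 promoters had peaks in all 6 lists on the wider count. Values for TCF7L2 at E15.5 were 7.96-fold at the outermost promoter, 9.01-fold at the promoter of Nfix-203 and Nfix-204, 13.6-fold near 84714068, and 9.01-fold at the innermost promoter. In the same order, E15.5 values were 8.35, 9.11, 7.97, and 9.24-fold for FOXP1 and 6.15, 7.48, 6.41, and 6.59-fold for ARID1B. Within each of these 2 TRs the intervals overlapped. At E18.5 FOXP1 had 5.27, 7.91, 3.94, and 5.71-fold and TCF7L2 6.9, 6.9, 12.6, and 10.3-fold.

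Most peaks of the NFI loci were not at promoters of these genes. Of the 1818 peaks, 124 (6.82%) overlapped a member promoter, 476 (26.2%) the promoter of another gene in the window, 35 (1.93%) had their summit in an exon, 785 (43.2%) in an intron, and 398 (21.9%) lay in the flanks. At E15.5 and E18.5, the family had 391 and 127 peaks of FOXP1, 351 and 345 of ARID1B, and 232 and 372 of TCF7L2. This order moved with the length of the lists. When every list was limited to its strongest 24872 peaks, TCF7L2 had the most peaks at both stages, 166 and 175, against 120 and 118 for ARID1B and 138 and 127 for FOXP1.

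**Figure D2:**
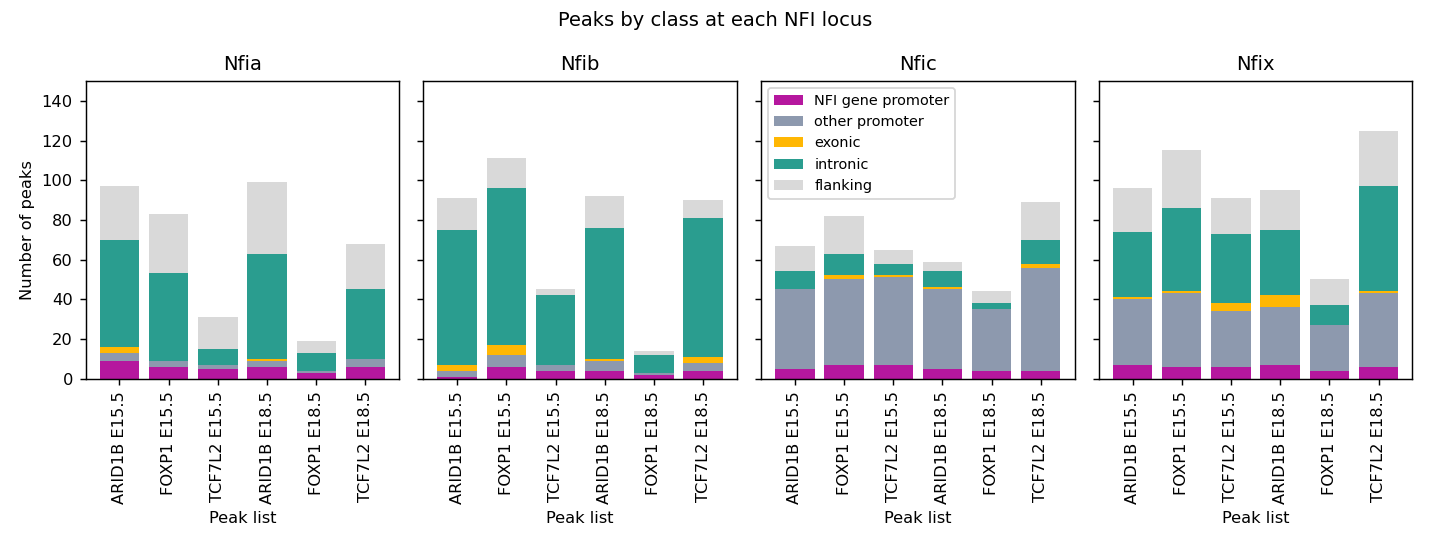
Number of peaks (y axis) at each NFI locus in the 6 lists (x axis), split by class. Introns held the largest number at Nfia and Nfib in most lists (79 FOXP1 peaks at Nfib at E15.5), and promoters of neighboring genes at Nfic (52 TCF7L2 peaks at E18.5).

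The classes divided the family. At Nfib, 68 of 91 ARID1B peaks, 79 of 111 FOXP1 peaks, and 35 of 45 TCF7L2 peaks at E15.5 were intronic. At Nfic only 9 of 67, 11 of 82, and 6 of 65 were, and 40, 43, and 44 belonged to promoters of other genes. The strongest of these were at Dohh (29.2-fold, FOXP1 at E15.5), an enzyme of hypusine synthesis, Fzr1 (21.3-fold, FOXP1 at E18.5), an activator of the anaphase-promoting complex, Pip5k1c and Tjp3 (20.6-fold, TCF7L2 at E18.5), a lipid kinase and a tight junction protein, and Cactin (20.3-fold, ARID1B at E18.5). At Nfix the strongest was at Calr (19-fold, FOXP1 at E15.5), a chaperone of the endoplasmic reticulum. Each of these neighbors exceeded every own-promoter value of Nfic or Nfix.

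**Figure D3:**
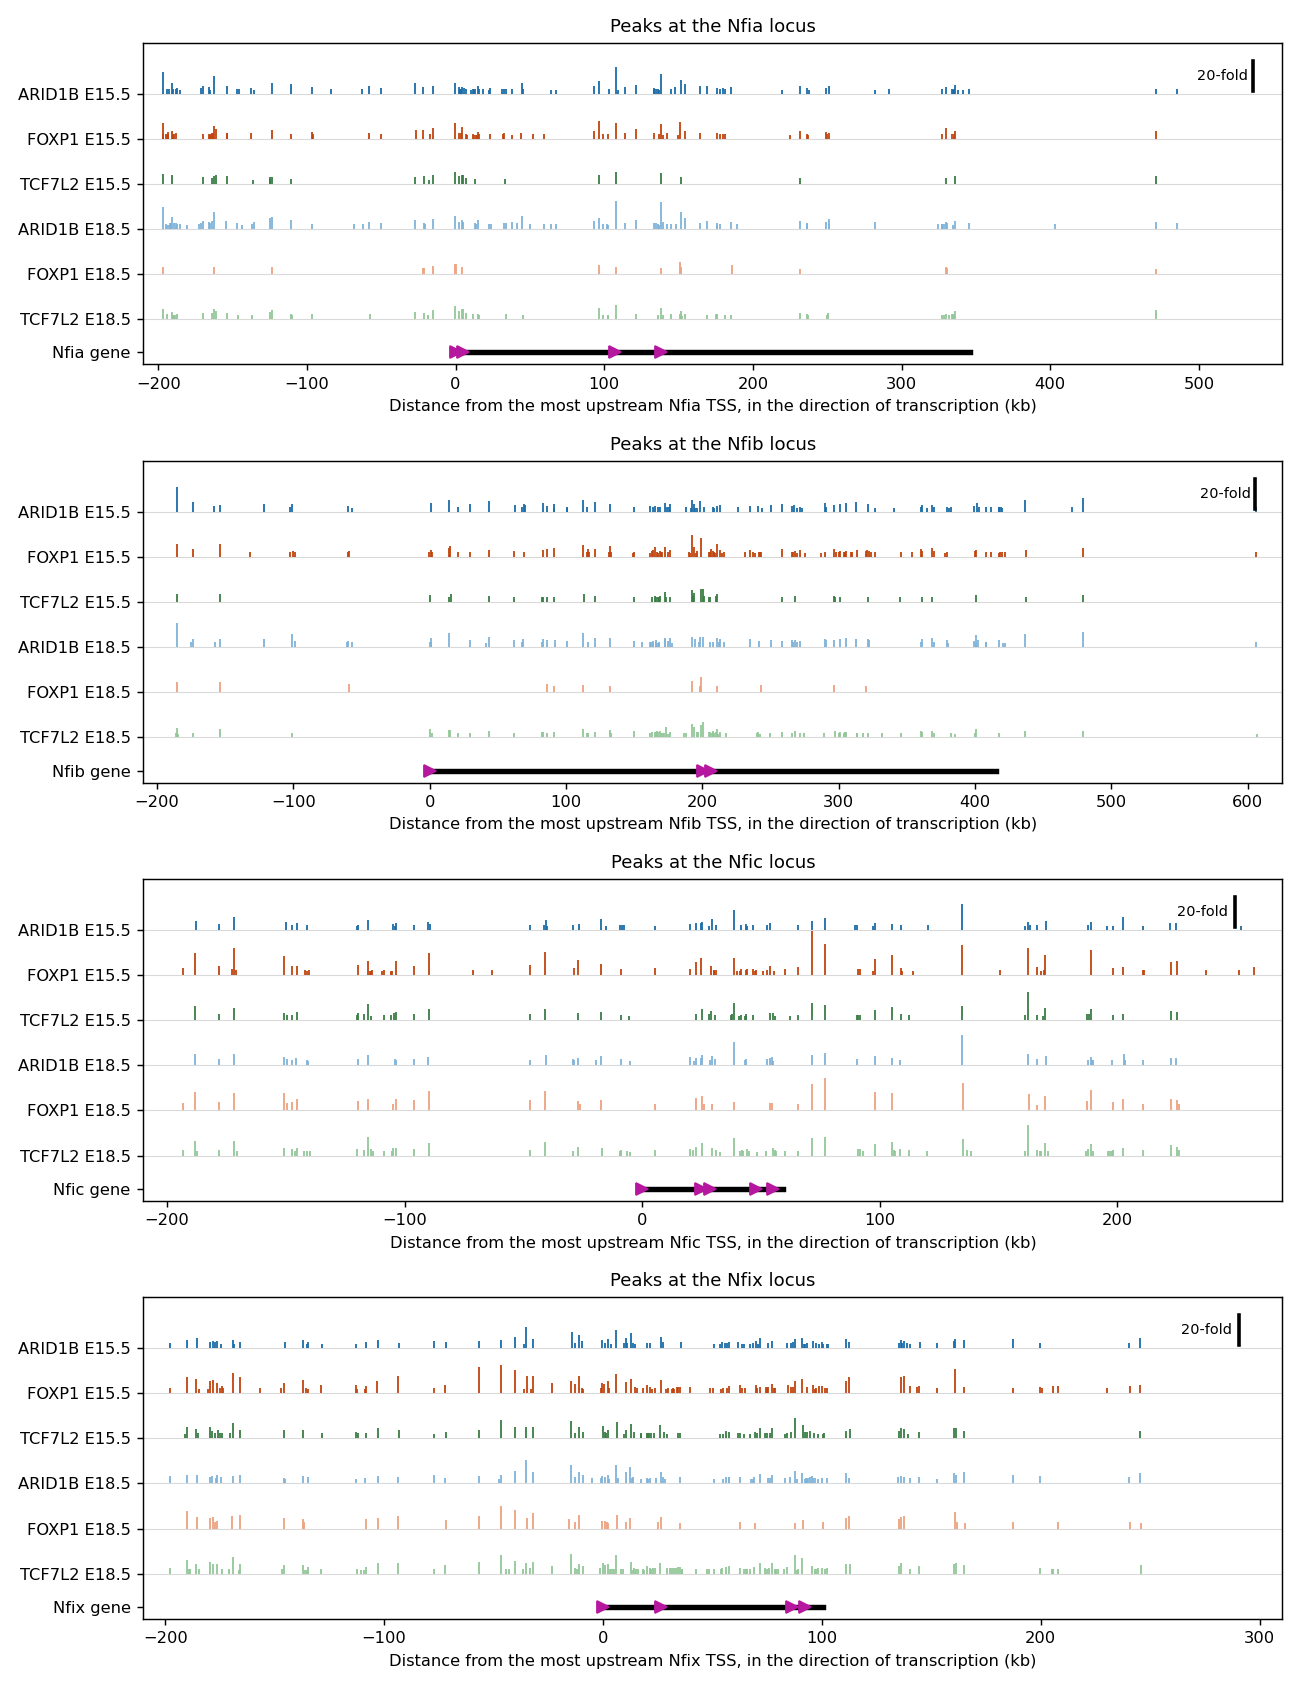
Peaks at the 4 NFI loci by distance of the summit from the most upstream TSS of the gene (x axis, kb, in the direction of transcription). Each row is a list, stick heights are fold enrichments on the scale of the 20-fold bar, the black line is the gene body, and triangles are promoters. Peaks ran along the whole length of Nfib and Nfix, clustered around the internal promoter of Nfib, and were sparse in the FOXP1 list at E18.5.

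Within the gene bodies the peaks were dense. Nfix held 428 and 458 ARID1B peaks per Mb at E15.5 and E18.5, 528 and 139 FOXP1 peaks, and 468 and 637 TCF7L2 peaks. Among 5007 protein-coding genes of at least 50 kb, whose medians were 12.1 to 28.9 peaks per Mb, Nfix ranked 1 for ARID1B at both stages and FOXP1 at E15.5, 2 for TCF7L2 at both stages, and 3 for FOXP1 at E18.5. Nfic ranked 5 to 15 in the 6 lists. The comparison with long genes was chosen after the values were seen. By the share of the gene body covered, Nfix still ranked 2 in 5 lists and 12 in FOXP1 at E18.5.

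Nfia and Nfib were less dense than Nfix and Nfic in all 6 lists. ARID1B peaks per Mb were 194 and 173 in Nfia (ranks 36 and 61) and 178 and 180 in Nfib (ranks 55 and 53). TCF7L2 had 40.4 per Mb at E15.5 and 121 at E18.5 in Nfia (ranks 545 and 197) and 98.7 and 193 in Nfib (ranks 84 and 66), beside medians of 13.8 and 18.2 in the long genes. FOXP1 had the higher density at E15.5, with 147 and 31.8 in Nfia (ranks 101 and 526) and 226 and 26.5 in Nfib (ranks 22 and 749), beside medians of 24.7 and 12.1. These densities rest on lists of unequal length, so they give no order of the TRs.

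**Figure D4:**
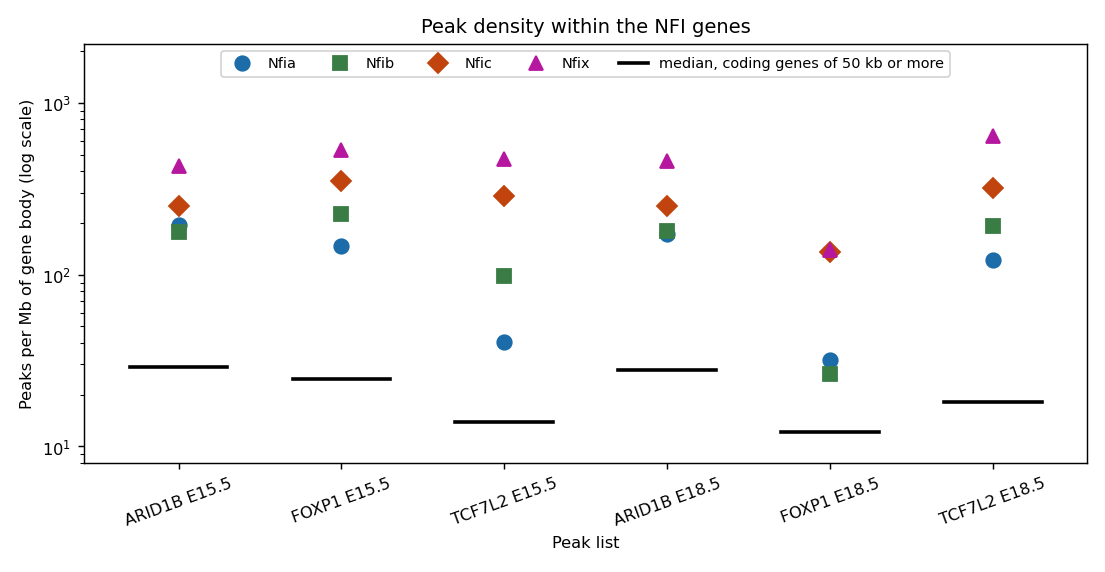
Peaks per Mb of gene body (y axis, log scale) for the 4 NFI genes in each list (x axis), with the median of 5007 protein-coding genes of at least 50 kb as black lines. All 24 points lie above the line of their list, and Nfix is highest in every list.

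The stages were then compared peak by peak. Of the ARID1B peaks at the NFI loci, 77.8% of 351 at E15.5 overlapped an ARID1B peak at E18.5 and 84.9% of 345 the reverse, and the whole lists gave 78.2% and 85.5%. For TCF7L2, 94.8% of 232 peaks at E15.5 were found again at E18.5 and 51.9% of 372 the reverse, against 95% and 56.5% in the whole lists. For FOXP1, 28.1% of 391 peaks at E15.5 were found at E18.5 and 99.2% of 127 the reverse, against 34.2% and 96.3%. The NFI loci differed from the whole lists by the most for FOXP1 at E15.5 and TCF7L2 at E18.5, where their shares were lower. The low FOXP1 share moved with list length. Limited to the strongest 24872 peaks in each list, it was 71% at the NFI loci and 75% over all FOXP1 peaks at E15.5. At this length the NFI share was also below that of the list for TCF7L2 at E18.5 (78.9 and 83.4%) and above it in the other lists, with 86.7 and 83.9% (ARID1B) and 93.4 and 87.5% (TCF7L2) at the earlier stage and 91.5 and 84.8% (ARID1B) and 91.3 and 83.6% (FOXP1) at the later.

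Distal peaks, those outside every promoter, were counted in the same way. For ARID1B 186 of 249 at E15.5 (74.7%, whole list 75.0%) and 205 of 246 at E18.5 (83.3%, whole list 83.0%) were shared. For TCF7L2 126 of 133 (94.7%, whole list 92.1%) and 108 of 255 (42.4%, whole list 43.9%) were. For FOXP1 47 of 277 (17%, whole list 19.9%) and 57 of 58 (98.3%, whole list 92.3%) were. The FOXP1 peaks shared with E18.5 had a median of 6.33-fold at E15.5 and those not shared 3.42-fold. The 2 FOXP1 lists have different backgrounds, 6.9 and 2.81 reads, and the part of depth in this sharing was not tested.

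Among the members, FOXP1 sharing at distal peaks was lowest at Nfib, with 11 of 99 peaks, followed by Nfia with 9 of 74, Nfic with 6 of 32, and Nfix with 21 of 72. The single distal FOXP1 peak at E18.5 without a partner at E15.5 was at Nfia, at 6.44-fold. TCF7L2 sharing from E18.5 to E15.5 ran from 33.3% at Nfic and 36.2% at Nfia to 42.7% at Nfib and 50% at Nfix.

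Loci were then formed from overlapping peaks of the 3 TRs at each stage. At E15.5 the NFI windows held 313 distal loci, of which 77 (24.6%) had all 3 TRs, against 18.1% of distal loci in the genome. At E18.5, 38 of 323 (11.8%) did, against 10.4%. Proximal loci with all 3 TRs were 75 of 120 at E15.5 and 60 of 116 at E18.5, against 65.7% and 57.0% in the genome. Nfix had the highest share of distal loci with all 3 TRs at both stages, 28 of 70 at E15.5 and 15 of 84 at E18.5. Nfia had 15 of 100 and 11 of 102, Nfib 26 of 110 and 8 of 104, and Nfic 8 of 33 and 4 of 33.

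Loci with 1 TR alone differed between stages in which TR it was. They were 146 of 313 distal loci (46.6%) at E15.5 and 190 of 323 (58.8%) at E18.5, against 51.3% and 65.1% of distal loci in the genome. At E15.5, 62 distal loci of the family were bound by ARID1B alone, 77 by FOXP1 alone, and 7 by TCF7L2 alone. At E18.5 the numbers were 81, 3, and 106. Of the 106, 43 were at Nfix and 26 at Nfib, and of the 81 ARID1B loci 47 were at Nfia. The whole lists held 71411 and 68447 peaks of ARID1B, 64059 and 24872 of FOXP1, and 32992 and 53173 of TCF7L2, the earlier stage first. The share of each TR alone among distal loci of the genome is not given here, so these counts do not set the NFI loci apart. Depth differs between these lists as given above, and its part in these numbers was not tested.

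Over both stages the windows held 469 loci, of which 94 (20%) had peaks in all 6 lists and 164 (35%) in only 1, against 17.7% and 32.3% of loci in the genome. By gene, the share in all 6 lists was 32% at Nfic, 31.6% at Nfix, 11.8% at Nfia, and 7.69% at Nfib. Promoters of other genes made up 26 of these 33 loci at Nfic, 18 of 37 at Nfix, 1 of 14 at Nfia, and 1 of 10 at Nfib. Among intronic loci alone the share was 0% of 10 at Nfic, 12.8% of 47 at Nfix, 5.8% of 69 at Nfia, and 7.61% of 92 at Nfib. Of the 94, 13 were at member promoters, 46 at promoters of other genes, 17 in introns, and 18 in the flanks. Distal loci found in 1 list alone were weak, at most 5.57-fold (FOXP1 at E15.5) and at most 3.37 to 4.35-fold in the other lists that had any, and the FOXP1 list at E18.5 had none.

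The strongest distal loci with peaks in all 6 lists differed in which TR had the highest value. In the Nfia flank, 197 kb upstream of the nearest Nfia TSS and inside E130114P18Rik (chr4:97575160-97576425), ARID1B was highest with 14.7-fold (12.5 to 17.1) at E15.5 and 14.7-fold (12.1 to 17.8) at E18.5. FOXP1 was 10.8-fold (8.61 to 13.3) and 4.68-fold (3.24 to 6.56) there and TCF7L2 was 6.82 and 7.12-fold. The intervals of ARID1B and FOXP1 overlapped at E15.5 and not at E18.5. The intronic Nfia locus 12.8 kb from a TSS (chr4:97923292-97925518) had FOXP1 at 11.5-fold (9.29 to 14.1) at E15.5 and 8.36-fold (6.36 to 10.8) at E18.5, and ARID1B at 9.26-fold (7.58 to 11.2) and 11.4-fold (9.04 to 14.1). FOXP1 was the higher at E15.5 and ARID1B at E18.5, with overlapping intervals at both stages. The summits of the TRs spanned 744 bp there, with the FOXP1 summits at 97923808 and 97923848 near the forkhead core and the ARID1B summits at 97924552 and 97924538.

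The flanking Nfib locus (chr4:82890437-82891757) lay 185 kb upstream of the gene and 6.02 kb from the TSS of Cer1, a secreted antagonist of Nodal and BMP signals. ARID1B led with 16.6-fold (14.3 to 19.2) and 16.1-fold (13.3 to 19.3), while FOXP1 was 8.86-fold (6.92 to 11.2) and 6.59-fold (4.84 to 8.79) and TCF7L2 5.35-fold (4.01 to 7.02) and 6.13-fold (4.64 to 7.95). Summits of the 6 lists fell within 23 bp. The intronic Nfib locus (chr4:82512190-82513852), 7.5 kb upstream of the main Nfib promoter and overlapping the antisense gene Gm11266, had FOXP1 highest at E15.5 (14.4-fold, 11.9 to 17.3), beside ARID1B at 7.66-fold (6.14 to 9.45) and TCF7L2 at 8.38-fold (6.66 to 10.4). At E18.5 TCF7L2 was 9.2-fold (7.35 to 11.4), FOXP1 7.77-fold (5.85 to 10.1), and ARID1B 6.73-fold (4.98 to 8.91), with overlapping intervals. Its summit window had 80% G and C, 27 CpG dinucleotides, and no motif match, in contrast to the ARID1B-led flanking locus with 48.5% and 4.

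At Nfic the leading distal locus (chr10:81569529-81572293) was nearest to Tle2, a corepressor gene of the Groucho family, 3.61 kb from its TSS. TCF7L2 had 10.6-fold (8.63 to 12.8) at E15.5 and 12.2-fold (10 to 14.6) at E18.5, with both summits at 81570949. FOXP1 had 9.37-fold (7.37 to 11.7) and 7.62-fold (5.72 to 9.96), so that its interval overlapped that of TCF7L2 at E15.5 and ended just below it at E18.5, and ARID1B had 6.41 and 7.15-fold. The next Nfic locus (chr10:81551499-81552410), nearest to Gna11, was weaker, with 3.66 to 7.18-fold. Both lie closer to other genes than to Nfic, whose TSSs are 115 and 96.2 kb away.

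At Nfix the leading distal locus (chr8:84792923-84795820) was intronic, 5.85 kb from the outermost promoter. At E15.5 ARID1B was 11.8-fold (9.92 to 14), FOXP1 12.9-fold (10.5 to 15.7), and TCF7L2 10.7-fold (8.72 to 12.9), and at E18.5 12.5-fold (10 to 15.3), 8.95-fold (6.87 to 11.5), and 12.4-fold (10.2 to 14.9). The intervals of the 3 TRs overlap at both stages.

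**Figure D5:**
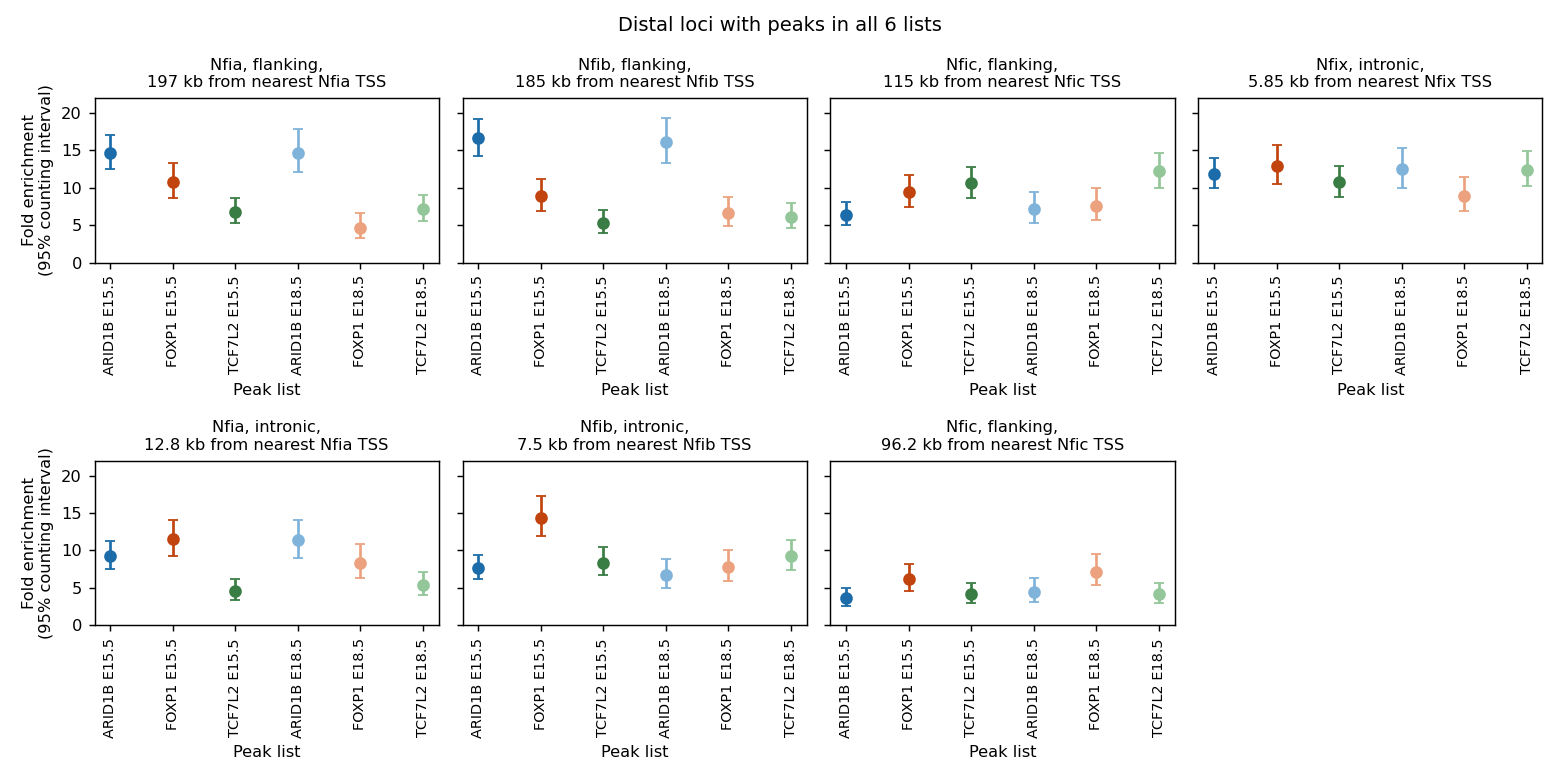
Fold enrichment (y axis, linear from 0, with 95% counting intervals) in the 6 lists (x axis) for 7 distal loci with peaks in all lists, 2 each of Nfia, Nfib, and Nfic and 1 of Nfix. ARID1B is highest at both stages at the flanking loci of Nfia and Nfib (14.7 to 16.6-fold), and TCF7L2 at the Nfic locus 115 kb away (10.6 and 12.2-fold).

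Between the stages, the FOXP1 intervals did not overlap at the flanking locus of Nfia and the intronic locus of Nfib, with the higher value at E15.5. The ARID1B and TCF7L2 intervals of the 2 stages overlapped at each of the 7 loci. A further Nfix locus is not reported here, so these loci give no count for the family. Counting intervals leave out the variation between animals and immunoprecipitations, which the merged lists do not show.

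Summits of different TRs were farther apart at the NFI loci than in general at E15.5. In overlapping peaks of ARID1B and FOXP1 the median distance of summits was 121.5 bp over 314 pairs at the NFI loci and 91 bp over all pairs. It was 155 and 94 bp for ARID1B and TCF7L2 and 147 and 100 bp for FOXP1 and TCF7L2. At E18.5 the medians were 96.5 to 124 bp at the NFI loci and 95 to 108 bp over all pairs.

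Motif letters were counted at the summits. In the 1218 distal summit windows of the family, 21.3% held the NFI monomer site, 3.69% the forkhead core, 3.69% the TCF/LEF core, and 26.9% the E-box, against 21.6%, 3.57%, 2.95%, and 29.9% of all distal windows. The NFI palindrome was in 3 of all 1818 windows, 2 at Nfib and 1 at Nfia, and in 0.0851% of all windows. Overlapping peaks of several lists share bases, so these windows repeat the same sites, and the palindrome can contain the monomer site. The genes differed among themselves. The forkhead core was in 5.75% of distal windows at Nfib and 0.86% at Nfix, the TCF/LEF core in 5.25% at Nfib and 2.87 to 3.23% at the others, and the E-box in 31.3% at Nfia, 31% at Nfib, 20.9% at Nfix, and 23 of 124 windows at Nfic. The monomer site was in 24.5% of 400 distal windows at Nfib, 23.8% of 345 at Nfia, 18.1% of 349 at Nfix, and 12.9% of 124 at Nfic. Median G and C contents of the same windows were 46.5% at Nfia, 47.5% at Nfib, 57.5% at Nfix, and 60% at Nfic.

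The genes around NFI in gliogenesis were described by a list of 20. It held partners and regulators of NFI (Sox9, Notch1, Hes1, Pax6, Emx2, Lhx2), genes of radial glia and astrocytes (Fabp7, Slc1a3, Nes, Gfap, S100b, Aldoc, Aldh1l1), and genes reported as NFI targets (Apcdd1, Mmd2, Zcchc24, Ezh2, Insc, Bbx, Gpm6a). At E15.5, 17 of 20 had a promoter peak of each TR, and at E18.5 18 had one of ARID1B, 15 of FOXP1, and 17 of TCF7L2. The shares of 75 to 90% stand beside the 55.0 to 61.8% of all protein-coding genes in the single lists. The cortical marker genes named above also had promoter peaks in every list, so a high share is not particular to the 20 genes. A background of genes expressed in cortex was not used. At a −log10 p of at least 15, FOXP1 at E18.5 had the lower share in the pathway list, 35% against 41.7%, and ARID1B at E18.5 had 50% against 40.1%. The median heights at the earlier and the later stage were 4.64 and 5.61-fold for ARID1B, 7.85 and 6.3-fold for FOXP1, and 6.92 and 6.79-fold for TCF7L2, and the FOXP1 values stand beside medians of 10.6 and 8.65 for all genes with such a peak.

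Sox9, the partner of Nfia in astrocyte induction, had peaks in every list, from 6.3-fold (FOXP1 at E18.5) to 9.75-fold (FOXP1 at E15.5). Ezh2, a histone methyltransferase whose gene NFI proteins repress, had the highest FOXP1 values of the list, 15.2-fold at E15.5 and 11.3-fold at E18.5. Mmd2, a gene that Nfia and Sox9 induce together, had 8.46 and 9.12-fold ARID1B peaks. S100b and Aldh1l1, markers of mature astrocytes, had no promoter peak in any list, Insc, an adaptor of spindle orientation, had 1 (ARID1B at E18.5, 3.37-fold), and Fabp7 and Gfap had peaks in all lists but FOXP1 at E18.5.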

How the data were processed

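Cortex of wildtype mice was profiled by ChIP-seq for ARID1B, FOXP1, and TCF7L2, with 12 ChIP and 12 input libraries of single-end reads. The authors aligned reads to GRCm38 with BWA (version 0.7.15 per the submitters' processing notes), kept alignments with a mapping quality of at least 30, merged the 2 replicates (per the study methods), and called peaks with MACS2 (2.2.7) against matched input at q 0.01, without a model and with reads extended to 200 bp. deepTools (3.4.3) and SAMtools are also named there. Whether duplicate reads were removed is not stated in the sources read. The deposited fold enrichment of each peak is the ratio, with 1 added to both, of scaled reads over the summit to a constant background. The deposited −log10 p and −log10 q values come from the same caller, which also gave a display score and, as a further score, the offset of the summit from the start of the peak. The display score was not used.

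Peaks were assigned to the 4 loci with GENCODE vM21 (the study names mouse release 23), and 191 peaks outside the main chromosomes were left out. A peak overlapping the 2000 bp upstream of a TSS by 1 base was a promoter peak, and the others were exonic, intronic, or flanking by their summit. Reads over a summit were recovered from fold enrichment and p (100% of pairs matched within 0.01 of −log10 p) and gave 95% exact Poisson intervals, which cover counting error only. The recovery and the counting were tested on simulated data. Each condition is 1 merged list, so no test between conditions was possible. The named loci were the 2 distal loci of each gene with the highest summed enrichment among those with peaks in all 6 lists; 1 of these loci is not reported here. The nearest genes were the 3 of smallest distance. A stricter limit on p, lists of equal length, a flank of 100 kb, a 50% overlap, other promoter definitions, and windows of 100 bp were the alternatives. The members and lists were chosen with earlier results of these data known. Python 3.11.15, NumPy 2.4.6, SciPy 1.17.1, pandas 2.3.3, and Matplotlib 3.10.9 were used.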

Additional observations from a re-analysis of the deposited data

How the results depend on the processing

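Of 229 comparisons with another setting over 58 results, 175 stayed within the limit for an unchanged value and 54 moved. The order of the TRs by number of peaks at E15.5 turned at equal list length, with TCF7L2 (166) first in place of FOXP1, and at the same length the share found at the other stage passed from below to above that of the whole list for ARID1B at both stages and TCF7L2 at E15.5. A promoter peak at all 4 NFI genes in all 6 lists was found under every promoter definition, the stricter p, and equal list length. Of 96 highest promoter enrichments 4 moved. With a −log10 p of at least 15, the peaks at the NFI loci at the earlier and later stage were 130 and 124 for ARID1B, 142 and 55 for FOXP1, and 83 and 111 for TCF7L2, and the shares found at the other stage were 86.2 and 93.5%, 37.3 and 100%, and 97.6 and 71.2%. The same limit gave 71 member promoter, 189 intronic, and 135 flanking peaks, 66 and 42 loci with all 3 TRs at the 2 stages, and 50% (ARID1B) and 35% (FOXP1) of pathway genes at E18.5, beside 40.1 and 41.7% of all protein-coding genes. At equal list length, peaks were 120 (ARID1B) and 138 (FOXP1) at E15.5 and 118 (ARID1B) and 175 (TCF7L2) at E18.5, and the shares were 86.7 and 91.5% for ARID1B and 71 and 91.3% for FOXP1. The later TCF7L2 list gave 78.9%. Equal list length also gave, over the 6 lists, 270 intronic and 178 flanking peaks, 80 and 64 loci with all 3 TRs, and 50% of pathway genes for ARID1B at both stages, beside 40.4 and 39.9% of all protein-coding genes. A flank of 100 kb gave 82 FOXP1 peaks at E18.5, a FOXP1 share of 23.5% at E15.5, 178 flanking peaks, and 62 loci with all 3 TRs at E18.5. Promoters on both sides of the TSS gave 206 member promoter peaks and protein-coding transcripts alone 77. An overlap of at least 50% of the shorter peak gave 90.9% for TCF7L2 at E15.5. The NFI monomer site was in 20.3% of windows at the stricter p and 10.5% in windows of 100 bp, the forkhead core in 2.02% and 1.32% (2.13% at equal length), the E-box in 20% and 12.7% (19.3% at equal length), and the TCF/LEF core in 1.38% in windows of 100 bp. These settings use fewer peaks, fewer bases, or another promoter, and beyond that the cause was not tested.

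No paired analysis was possible because each condition is 1 list from merged replicates, and leaving out a replicate was not possible either. The weakest called peak of FOXP1 at E18.5 had 3.21-fold enrichment, the highest such value of the 6 lists, so a weaker peak was not detectable there.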
